A study of Homo sapiens with 13 samples.

Results

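OTX2, OTX1, CRX, NRL, RAX, PAX6, SIX3, SIX6 and LHX2 are transcription factor genes of the eye field, the retina and the pineal gland, and they made up 9 of the 20007 protein-coding genes examined. They were selected by name, with earlier results of the same atlases known, and each was read in 3 windows of GENCODE release 44 on hg38, which were 1 kb to either side of the transcription start site (TSS), the gene body, and the gene body with 100 kb to either side. The number of accessible regions, their width and the share of the window that they covered were compared between H82 and H146. Because this comparison also guided the choice of the genes, its values are given as a description and no test was made.

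The assay was ATAC-seq, which uses the transposase Tn5 to insert adapters into open DNA, and it was run on a pair of established cell lines of human small cell lung cancer (SCLC). H82 is of the SCLC-N subtype, which is defined by the transcription factor NEUROD1, and H146 is of the SCLC-A subtype. Cells were untreated or were kept for 14 days in 100 nM FHD-286, which inhibits SMARCA4 and SMARCA2, the ATPases of the SWI/SNF chromatin remodelling complexes. There were 3 untreated and 3 treated H82 libraries, and 4 untreated and 3 treated H146 libraries, and the cells were cryopreserved before the assay. Each line is 1 cell line grown in culture, so a difference between H82 and H146 is a difference between those lines and not between the subtypes.

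The data were 1 atlas of regions per line, pooled over untreated and treated libraries, in which a region has a chromosome, a start and an end, but no height, read count or library. The effect of FHD-286 on these genes could therefore not be measured, library depths were unknown, and replicate error could not be estimated for any value. The H82 atlas held 206927 regions that covered 5.41% of the genome, and the H146 atlas held 174093 that covered 4.49%. The paper reports that the H146 libraries were sequenced in separate batches, which the H146 atlas pools. Line, library number, sequencing batch, sequencing depth and DNA copies at a locus cannot be told apart. Of the neuroendocrine markers checked, INSM1, CHGA, SYP and NCAM1 had a TSS region in both atlases, and NEUROD1 had one in H82 only.

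OTX2, OTX1 and CRX encode homeodomain proteins of 1 family, which bind DNA with the core TAATCC. OTX2 patterns the forebrain and midbrain and starts the photoreceptor and pineal programmes, in which CRX and the leucine zipper factor NRL then act. RAX, PAX6, SIX3, SIX6 and LHX2 specify the eye field, from which the optic vesicle and the retina form. OTX2 is also known as an oncogene of medulloblastoma.

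The sequences shown here are a selection of RefSeq starts (GRCh38.p14) that bear on OTX2, CRX and the recognition word of their proteins. The starts of OTX2, OPN1SW, SAG, PDE6A and SAMD7 had an H82 region only, and that of CRX had regions of both lines, which differed in width. Capitals mark the word TAATCC or its complement GGATTA, searched on both strands, and each sequence is written in the direction of transcription. For OTX2 (chr14:56810480-56810729, minus strand), the photoreceptor genes OPN1SW (chr7:128775795-128776044, minus strand), SAG (chr2:233307566-233307815, plus strand) and PDE6A (chr5:149944794-149945043, minus strand), and the retinal regulator SAMD7 (chr3:169911322-169911571, plus strand) these are the 250 bases before the start. For CRX they are 30 bases around each of its matches (chr19:47821761-47821790 and chr19:47821840-47821869, plus strand), which lie in an exon of longer transcripts. OTX2 is shown as the gene with the greatest difference between the lines, and it has no match here.
OTX2: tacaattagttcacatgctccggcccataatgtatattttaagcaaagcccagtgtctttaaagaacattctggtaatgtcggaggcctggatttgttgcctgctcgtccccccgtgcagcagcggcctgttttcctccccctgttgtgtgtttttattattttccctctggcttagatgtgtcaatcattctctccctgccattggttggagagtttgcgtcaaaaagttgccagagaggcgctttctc
OPN1SW: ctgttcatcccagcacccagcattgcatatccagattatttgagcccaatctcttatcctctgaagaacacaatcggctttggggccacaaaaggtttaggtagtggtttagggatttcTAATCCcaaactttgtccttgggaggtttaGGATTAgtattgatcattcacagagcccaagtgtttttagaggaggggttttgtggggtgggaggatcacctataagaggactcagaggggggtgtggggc
SAG: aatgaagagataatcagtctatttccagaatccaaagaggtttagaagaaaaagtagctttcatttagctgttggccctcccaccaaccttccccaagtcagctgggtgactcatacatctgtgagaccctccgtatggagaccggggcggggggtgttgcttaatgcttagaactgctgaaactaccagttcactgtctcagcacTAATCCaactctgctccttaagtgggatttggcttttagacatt
PDE6A: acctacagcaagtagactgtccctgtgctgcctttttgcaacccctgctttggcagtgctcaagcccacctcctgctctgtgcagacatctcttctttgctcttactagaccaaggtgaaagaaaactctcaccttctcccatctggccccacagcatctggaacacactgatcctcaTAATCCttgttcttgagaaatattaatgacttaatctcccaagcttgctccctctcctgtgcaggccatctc
SAMD7: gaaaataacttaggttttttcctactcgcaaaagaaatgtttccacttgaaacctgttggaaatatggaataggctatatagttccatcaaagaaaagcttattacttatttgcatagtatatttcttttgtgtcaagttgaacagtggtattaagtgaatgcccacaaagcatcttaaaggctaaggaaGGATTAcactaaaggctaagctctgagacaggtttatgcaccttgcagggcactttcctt
CRX site 1: gggaagaggaggGGATTAagcagacgggtg
CRX site 2: ccaccttggccgGGATTAccctccgagttc

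All 250 bases shown for OTX2, OPN1SW, SAG, PDE6A and SAMD7 lay in an H82 region, and 0 of them in an H146 region. The CRX matches began at -164 and -85 from the RefSeq start, the first base of the transcript being 0. Both CRX sites lay in an H82 region, and the one at -85 lay in an H146 region too. The matches began at -131 and -101 in OPN1SW, at -44 in SAG, at -72 in PDE6A and at -60 in SAMD7. A match is a run of letters and not evidence of binding.

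OTX2 (chr14:56799905-56816693, minus strand) stood apart from the other 8 genes. In H82, 36 regions covered 85.6% of the gene and its flanks, against 23 regions and 5.97% in H146. The ratio was 14.4-fold, or 3.84 on the log2 scale, and the covered share of H82 exceeded that of 99.96% of all genes, whereas that of H146 lay at the 49.4th percentile. The regions differed in width more than in number. Their median width was 3820.5 bp in H82 and 440 bp in H146, and the widest measured 26742 and 1957 bp.

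Within the OTX2 gene the contrast was complete. H82 had 3 regions that covered 91.2% of the gene body, and H146 had 0. A region of 2979 bp (chr14:56816096-56819074) lay over the OTX2 TSS in H82, and the nearest H146 region was 5193 bp away. OTX2 has 8 annotated transcript starts, and all 8 had an H82 region within 1 kb and 0 had an H146 region. All but the start at the 5′ end lay inside a single H82 region of 14339 bp, so they are not separate observations. The H146 regions, absent from all starts, were distal, with 9 in the 100 kb upstream and 14 in the 100 kb downstream. Each of these 23 H146 regions overlapped an H82 region. Since H82 regions covered 85.6% of the window and 1 bp in common was enough, such overlap was nearly fixed in advance, and nothing is read from it. Of the 36 H82 regions, 19 had no H146 counterpart (52.8%, against 40.7% of all H82 regions).

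**Figure D1:**
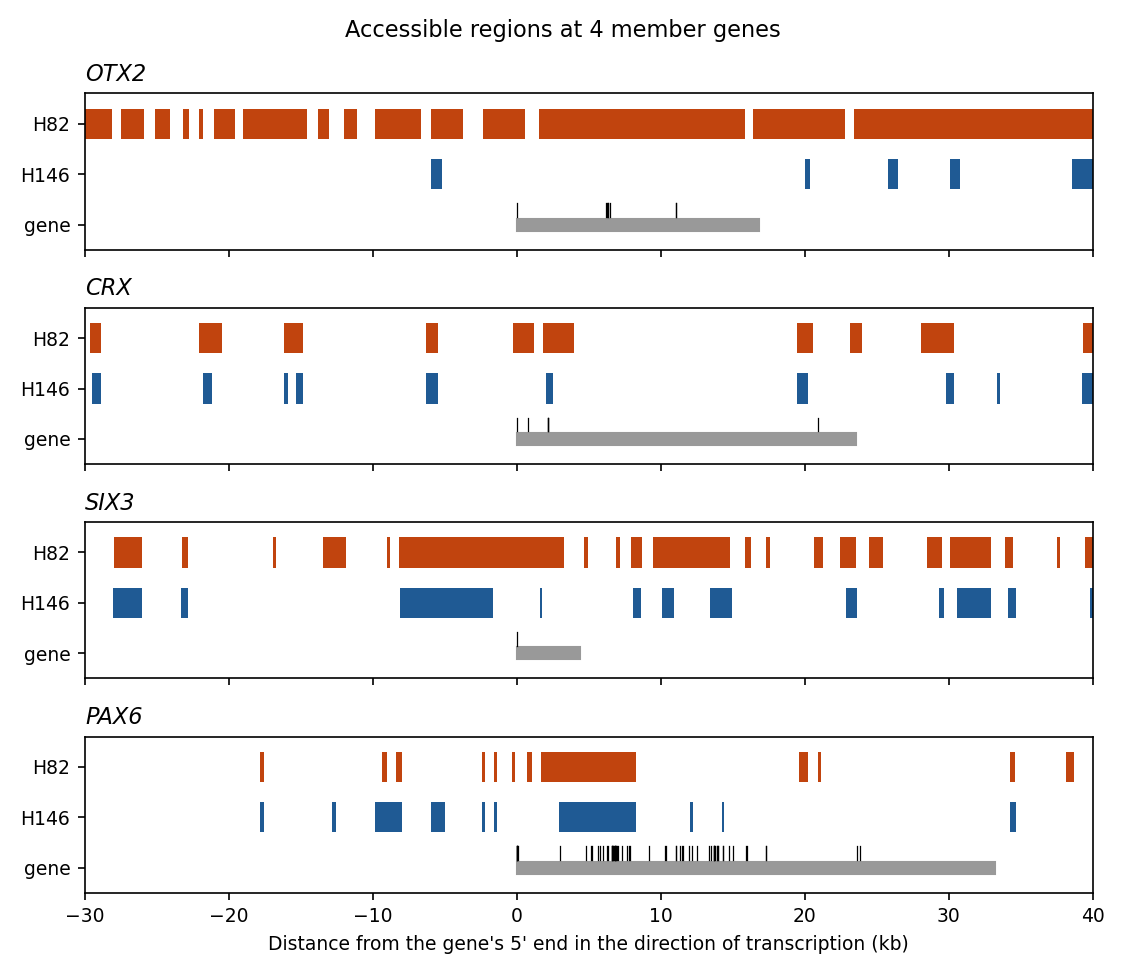
Accessible regions of H82 (upper row of bars) and H146 (lower row) from 30 kb before to 40 kb after the 5′ end of OTX2, CRX, SIX3 and PAX6, with the distance in kb in the direction of transcription, the gene body in grey and annotated transcript starts as ticks. H82 bars fill 91.2% of the OTX2 gene body and H146 bars none of it, whereas CRX and PAX6 have regions of both lines at internal starts.

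The dense H82 coverage was not limited to OTX2. Windows of 50 kb covered to at least 20% in H82 ran without a break around the gene from chr14:56100001 to 58250000, a stretch of 2150 kb that was delimited after the data were seen. H82 regions covered 70.7% of it and H146 regions 2.87%, with 419 and 99 regions of median width 1194 and 494 bp. The widest H82 region there measured 90931 bp, and the median gap between H82 regions was 948.5 bp, against 10429.5 bp in H146. Outside the stretch the lines were close. The 500 kb to its left were covered to 3.84% in H82 and 2.96% in H146, and the 500 kb to its right to 4.53% and 4.25%.

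This density bears on how the OTX2 TSS is read. Inside the stretch, 93.1% of windows of 2 kb, placed every 1 kb, were touched by an H82 region, against 11.5% for H146, so a region at any chosen point was the rule in H82. The stretch held the TSSs of 10 protein-coding genes, none of the others within 300 kb of OTX2. Of the 10, 9 had an H82 region within 1 kb and 7 an H146 region. The 7 with both were PELI2, EXOC5, AP5M1, NAA30, SLC35F4, ACTR10 and PSMA3, and CCDC198 had neither. Beside OTX2, TMEM260, 328 kb away, was the other gene with a region in H82 only. Whether H82 carries more DNA copies of this stretch was not tested.

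**Figure D2:**
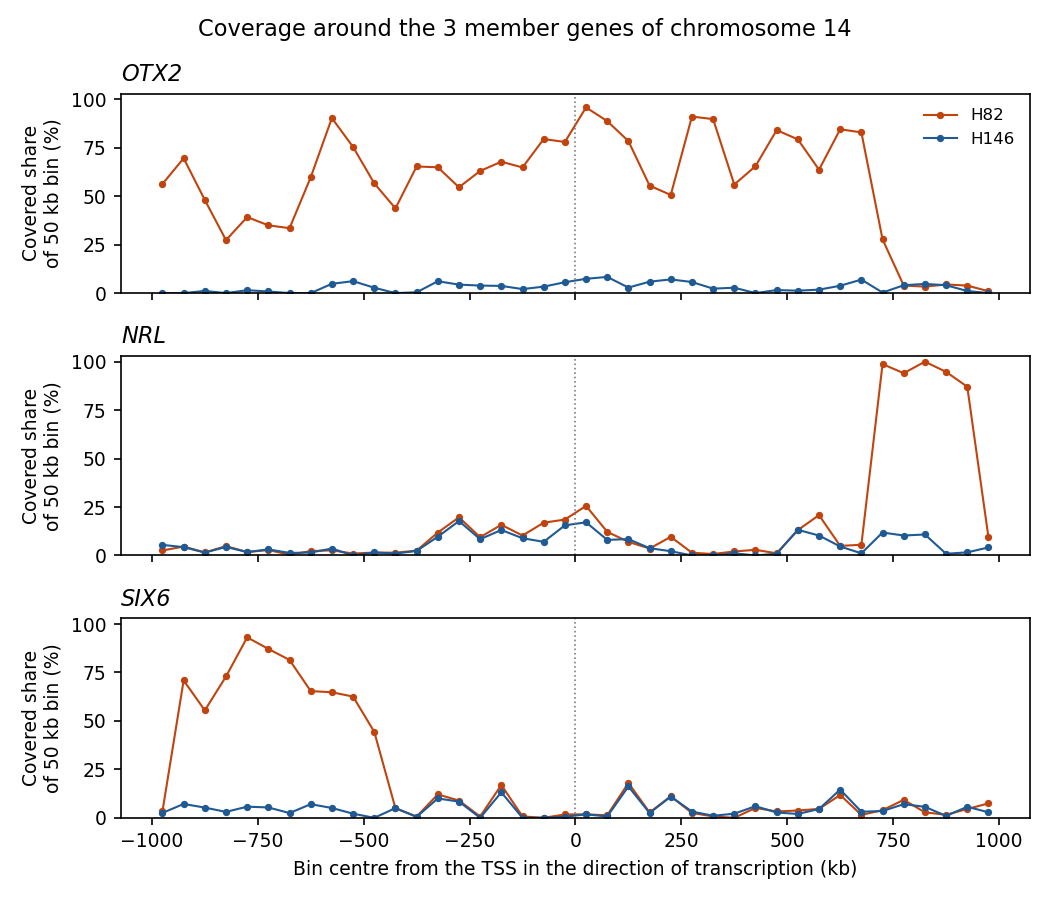
Covered share (%) of 50 kb bins within 1 Mb of the TSSs of OTX2, NRL and SIX6, with the bin centre in kb from the TSS in the direction of transcription, for H82 (orange) and H146 (blue). In H82, 28 of 40 bins around OTX2 were covered to at least 50%, against 5 around NRL and 9 around SIX6, where they lay at a distance from the gene, and H146 had 0 in each.

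The other members on chromosome 14 had comparable dense stretches nearby but not over the gene. For NRL, 5 of 40 bins of 50 kb within 1 Mb were covered to at least 50% in H82, and the centre of the nearest was 725 kb from the TSS. For SIX6 there were 9, all in a stretch of 500 kb (chr14:59550001-60050000) that was covered to 69.5% in H82 and 4.34% in H146 and ended 459 kb before the SIX6 TSS. LHX2 on chromosome 9 had 2 such bins, the nearer with its centre 475 kb away and covered to 54.3%. The remaining 5 genes, OTX1, CRX, RAX, PAX6 and SIX3, had 0, and H146 had 0 at all 9 genes. The 3 protein-coding genes with covered shares most like those of OTX2 were SLC22A17, PABPN1 and the readthrough gene BCL2L2-PABPN1, at 5.10, 6.70 and 7.03 percentage points from it over the 2 atlases. They share 1 locus on chromosome 14, and their windows overlap.

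OTX1 (chr2:63050057-63057836, plus strand), the paralogue of OTX2, had a TSS region in both lines. That region was 5835 bp wide in H82 and 4291 bp in H146, and all 5 transcript starts had regions of both. OTX1 and its flanks held 14 H82 and 9 H146 regions, which covered 5.67% and 3.72%. The log2 ratio was 0.61. Of the 14 H82 regions, 10 had no H146 counterpart (71.4%, against 40.7% of all H82 regions). The shared ones had centres from 26.4 kb before the TSS to 5.8 kb after it.

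CRX (chr19:47819779-47843330, plus strand) differed over the gene and near it, and little over the full window. A region of 1448 bp (chr19:47819498-47820945) lay over the gene's 5′ end in H82, and the nearest H146 region was 2049 bp away. That H146 region, 459 bp wide, lay at a cluster of internal starts 2155 to 2185 bp downstream, where the H82 region was 2140 bp wide. Of 6 CRX transcript starts, 6 had an H82 region and 4 an H146 region, and the starts with H82 only were those at 0 and 765 bp. The CRX gene body was covered to 20.4% in H82 and 5.00% in H146. With flanks of 50 kb, 18 H82 regions covered 15.1% and 16 H146 regions 7.89%, a log2 ratio of 0.94. The window with flanks of 100 kb was alike, with 39 and 43 regions covering 17.2% and 16.6%, of which 35 in each line overlapped the other. The log2 ratio of this window was 0.05, and it turned to -0.22 when both atlases were scaled to equal coverage.

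NRL (chr14:24078662-24115010, minus strand), the rod-fate factor, had nearly identical TSS regions of 2261 bp in H82 and 2253 bp in H146, with the same start coordinate. Its window held 38 H82 and 26 H146 regions, covering 16.6% and 11.4%. Of the H146 regions, 5 had no H82 counterpart (19.2%, against 29.5% of all H146 regions). Of the H82 regions, 18 had no H146 counterpart (47.4%, against 40.7% of all H82 regions). One of them was an intronic region of 2300 bp (chr14:24084834-24087133) beside the only one of 6 NRL starts that H146 lacked. The log2 ratio was 0.55.

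RAX (chr18:59267035-59274086, minus strand), among the first genes of the eye field, ran the other way. It had 29 regions in H82 and 37 in H146, covering 14.7% and 18.1%, a log2 ratio of -0.30. The TSS regions, 1724 and 1548 bp wide, began at the same base, and all 4 transcript starts had regions of both lines. An H146 counterpart was lacking for 2 of 29 H82 regions (6.90%, against 40.7% of all H82 regions). For 11 of 37 H146 regions an H82 counterpart was lacking (29.7%, against 29.5% of all H146 regions). An H146 region of 6517 bp reached over the 3′ end of the gene, where H82 had regions of 3277 and 2587 bp to either side of that end. The gene body was covered to 70.7% in H82 and 70.4% in H146. RAX was thus open at its promoter in both lines. The higher share in H146 was not limited to RAX, since 35 of the 40 bins of 50 kb within 1 Mb were covered more in H146 and 5 more in H82, with medians of 16.9% and 12.6%.

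SIX3 (chr2:44941702-44946071, plus strand), which represses Wnt signalling in the anterior forebrain, differed over the gene and in its flanks. In H82 a single region of 11455 bp (chr2:44933541-44944995) ran from upstream across the TSS into the gene, wider than 99.1% of H82 TSS regions. In H146 a region of 6471 bp began at almost the same place (chr2:44933579-44940049) and ended before the TSS, and a further region of 200 bp lay in the intron. The gene body was covered to 75.4% in H82 and 4.58% in H146. The 100 kb upstream were covered to 15.5% and 10.1%, and the 100 kb downstream to 27.3% and 15.4%. The SIX3 window held 42 and 23 regions, covering 22.6% and 12.6% (log2 ratio 0.84). Of the H82 regions, 24 had no H146 counterpart (57.1%, against 40.7% of all H82 regions). Of the H146 regions, 4 had no H82 counterpart (17.4%, against 29.5% of all H146 regions). SIX3 had the second highest log2 ratio of the 9 genes, without any dense bin within 1 Mb.

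PAX6 (chr11:31784779-31817961, minus strand), the paired-domain regulator of eye formation, counted as open at the TSS in H82 only, on narrow regions. These were 363 and 200 bp wide within 1 kb of the gene's 5′ end, and H146 had its nearest region 1394 bp away. The main cluster of PAX6 starts lay downstream inside a wide region shared by both lines, of 6537 bp in H82 and 5326 bp in H146, which had the same lower coordinate. Of 66 annotated PAX6 starts, 35 had an H82 and 52 an H146 region. The 6 starts with H82 only lay at the 5′ end. The 23 with H146 only lay around exonic regions of 200 and 212 bp, so these starts share a pair of narrow regions and are not separate observations. Both lines had 20 regions in the window, covering 6.29% and 6.48% (log2 ratio -0.04).

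SIX6 and LHX2 closed the set. SIX6 (chr14:60509146-60512850, plus strand), a close relative of SIX3 that acts in the retina and pituitary, had no region within 1 kb of its TSS in either line, the nearest being 5520 bp away in H82 and 5289 bp in H146. Its window held 6 and 3 regions, covering 1.19% and 0.742%, the lowest values of the 9 genes, and its log2 ratio of 0.68 turned to -0.73 with regions under 500 bp left out. LHX2 (chr9:124001670-124033301, plus strand), a LIM-homeodomain gene needed for the optic vesicle, had TSS regions of 3046 and 2752 bp in H82 and H146 that ended at the same base. It had 27 and 25 regions covering 8.50% and 10.2%, a log2 ratio of -0.26.

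**Figure D3:**
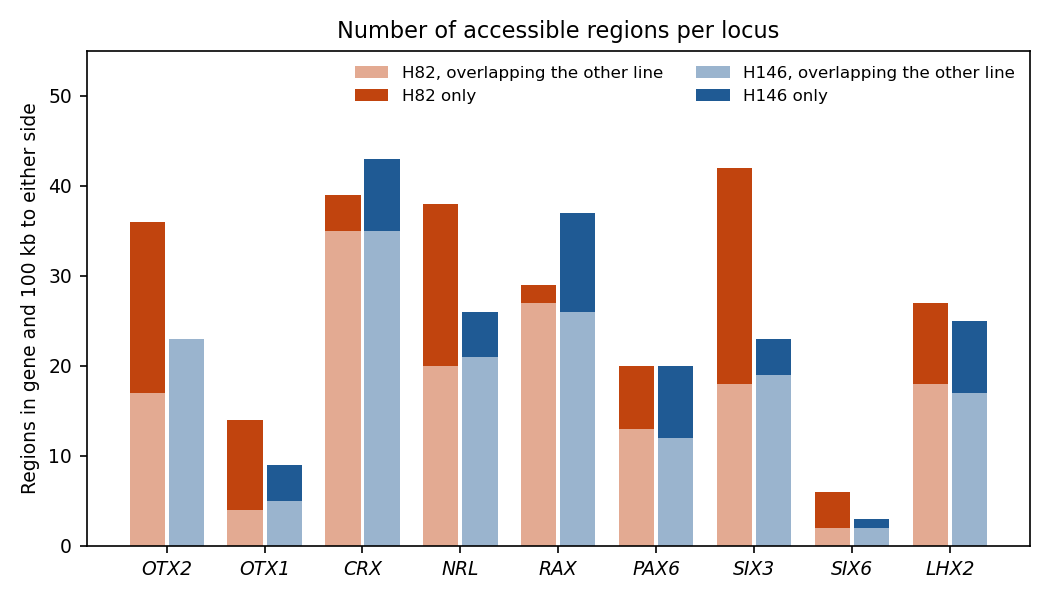
Number of accessible regions in each gene and 100 kb to either side for H82 (orange) and H146 (blue), with pale segments for regions that overlap the other line and dark segments for regions of that line only. SIX3 had 24 H82-only regions and CRX 4, and OTX2, where H82 regions covered 85.6% of the window, had 0 H146-only regions.

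Across the 9 genes, the counts of genes with more H82 regions or a higher H82 share lay near those of the whole gene set. The covered share was higher in H82 for 6 of 9 genes, against 65.1% of all protein-coding genes, and the number of regions was higher in H82 for 6 of 9, against 65.6%. A covered share at least 2-fold higher in H82 was found for 1 of 9, OTX2, against 13.9% of all genes, and at least 2-fold higher in H146 for 0 of 9, against 0.880%. Their median covered share, 14.7% for H82 and 10.2% for H146, compares with 7.40% and 6.04% over all genes, and 6 of the 9 genes lay above the all-gene median in each line. The median log2 ratio of covered share was 0.55 for the 9 genes and 0.20 for all genes, that of region number 0.55 and 0.24, and that of median width 0.14 and -0.05. Without OTX2 the median log2 ratio of covered share was 0.30. Regions of H82 only made up 78 of 215 (36.3%) at the other 8 genes and 40.7% of the atlas, and regions of H146 only 49 of 186 (26.3%) and 29.5%.

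**Figure D4:**
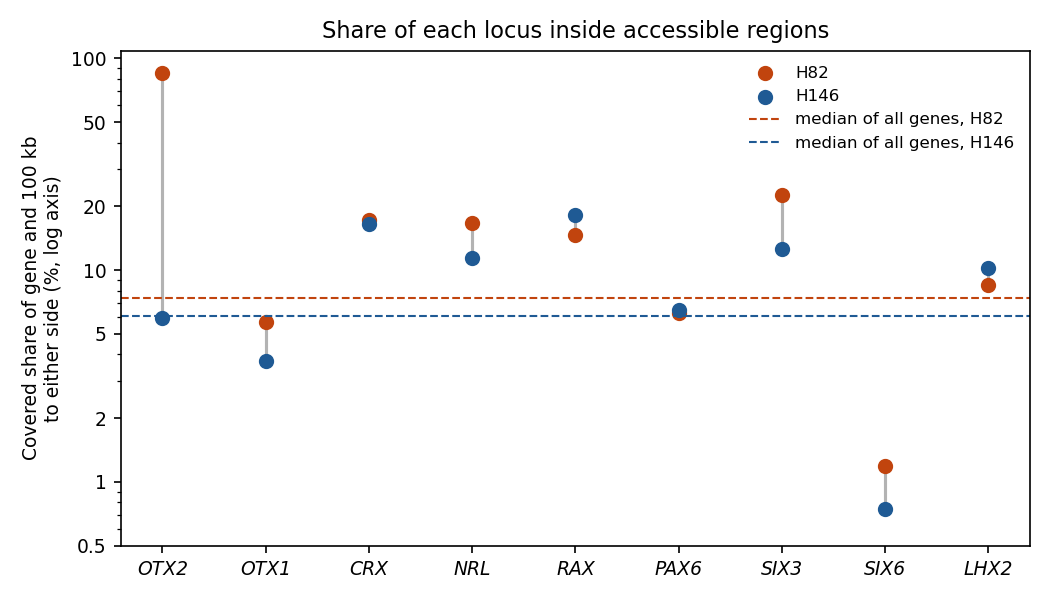
Covered share of each gene and 100 kb to either side (%, log axis) in H82 (orange) and H146 (blue), with the medians of all protein-coding genes as dashed lines. OTX2 reaches 85.6% in H82 and 5.97% in H146, and the shares of the other 8 genes lie within 2-fold of each other between the lines.

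At the TSS the 9 genes fell into classes. A region in H82 only was found for 4 of 9 (OTX2, CRX, PAX6 and SIX3), against 5.09% of all genes, and one in H146 only for 0 of 9, against 1.86%. OTX1, NRL, RAX and LHX2 had both, and SIX6 alone had neither, against 17.7% of all genes. The choice of the genes used this comparison, so nothing is read from the count of 4. The class H82 only held for OTX2 under each of the 4 other TSS rules tried, which were regions of at least 500 bp, windows of 500 bp or 2 kb, and the starts of all transcripts. CRX left it with the starts of all transcripts, SIX3 with the window of 2 kb, and PAX6 under every rule but the window of 500 bp. For OTX2 an H82 region was nearly fixed in advance, since 93.1% of the 2 kb windows in its stretch were touched by one. The rules could thus move OTX2 mainly through an H146 region, and its constancy is not set against the other 3 genes.

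Genes related to these factors by tissue or family were read the same way, from lists chosen with earlier results of the atlases known. Whether the 9 members regulate them was not tested. Of 33 photoreceptor and pineal genes, 13 (39.4%, against 5.09% of all genes) had a TSS region in H82 only, 0 in H146 only, 14 in both and 6 in neither. Base composition differed too. The median ratio of observed to expected CpG was 0.221 at the 22 of these genes with a RefSeq promoter and 0.767 in all promoters. Its part in the contrast with all genes was not tested. As the list was chosen with earlier results known, nothing is read from the count of 13. The 13 included genes of phototransduction, of the outer segment and of the matrix around it. OPN1SW, the short-wavelength cone opsin, had an H82 TSS region of 932 bp, the phosphodiesterase subunit genes PDE6A, PDE6G and PDE6H had regions of 842, 370 and 273 bp, the arrestin genes SAG and ARR3 1452 and 1700 bp, and the guanylate cyclase gene GUCY2F 375 bp. PRPH2, which shapes the outer-segment discs, had 428 bp, the retinoid transporter gene ABCA4 3452 bp, TULP1 413 bp, and IMPG1 and IMPG2 of the interphotoreceptor matrix 372 and 1730 bp.

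These photoreceptor sites were often narrow. With regions of at least 500 bp, 9 of the 33 genes had a TSS region in H82 only, against 4.53% of all genes under that rule. PDE6G, PDE6H, GUCY2F, PRPH2, TULP1 and IMPG1 left the class. RBP3 and GUCY2D entered it, because their H146 TSS regions of 200 and 209 bp were left out. With the starts of all transcripts the number was 10, against 4.06%. There SAG, PDE6G, ABCA4 and IMPG1 had regions of both lines, and RDH12 entered the class. The covered share was higher in H82 for 26 of 33 genes, against 65.1% of all genes, with a median log2 ratio of 0.50 against 0.20. It was at least 2-fold higher in H82 for 6 of 33, near the 13.9% of all genes, and at least 2-fold higher in H146 for 0, against 0.880%. IMPG2 had the highest log2 ratio among the 13, 3.68, with 32 H82 regions covering 8.35% and 6 H146 regions covering 0.652%. PDE6G, with 37 regions in each line, covering 33.5% and 31.3%, differed at the gene's 5′ end under the main rule and hardly around it.

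**Figure D5:**
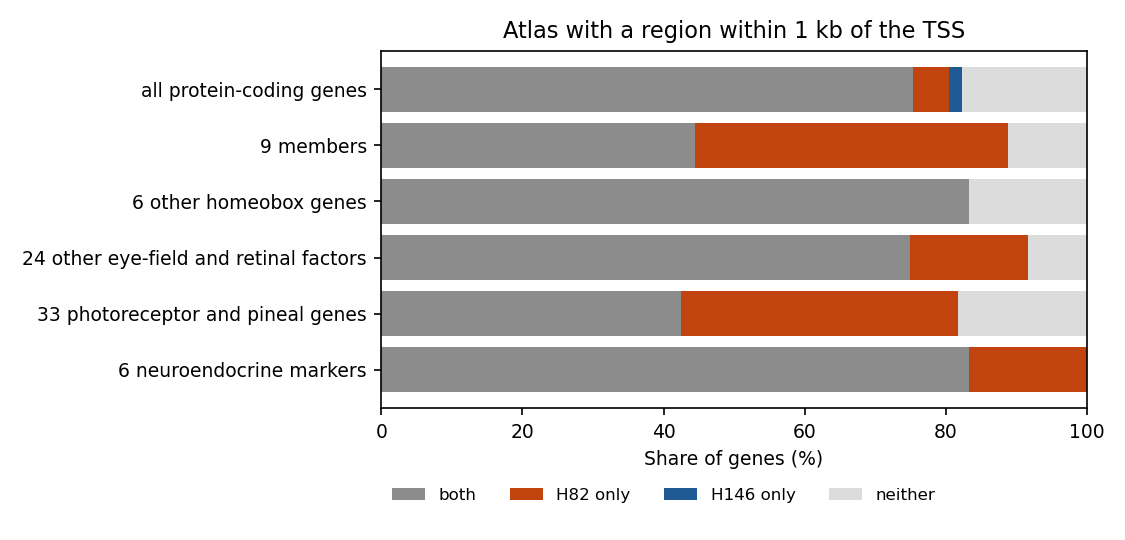
Share of genes (%) whose TSS has a region within 1 kb in both atlases (grey), in H82 only (orange), in H146 only (blue) or in neither (pale), for all protein-coding genes, the 9 members and 4 gene lists. H82 only takes 39.4% of the photoreceptor and pineal genes and 5.09% of all genes, and H146 only takes 0 in each list.

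Among 24 other eye-field and retinal transcription factor genes, 18 had a TSS region in both lines and 4 in H82 only, against 5.09% of all genes, with 0 in H146 only and 2 in neither. They included the RAX paralogue RAX2 (769 bp), TFAP2B of amacrine cells (273 bp) and SAMD7, a rod regulator (435 bp). Of these, RAX2 kept its class with regions of at least 500 bp. TFAP2B had regions of both lines with the starts of all transcripts, and its covered share was lower in H82, at 1.99% against 2.67% in H146. The covered share was higher in H82 for 21 of 24 genes, against 65.1% of all genes, with a median log2 ratio of 0.38 against 0.20. Of 6 other homeobox genes whose proteins read TAATCC, 5 had a TSS region in both lines. DMBX1 had 70 and 32 regions covering 30.3% and 10.4%, and GSC was the gene with the higher share in H146, at 2.59% against 1.20%.

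The word TAATCC was counted in the accessible sequence around the 9 genes. H82 regions held 366 matches, or 0.900 per kb, and H146 regions 113, or 0.599 per kb, a log2 ratio of 0.59. All regions of the atlases held 0.680 per kb in H82 and 0.416 per kb in H146, a log2 ratio of 0.71, so the ratio around these genes was no higher than that between the whole atlases. The reversed word CCTAAT, read as a control for base composition, gave 0.35. Without OTX2 the densities were 0.812 and 0.604 per kb (log2 ratio 0.43), and the reversed word gave 0.32. The sequence TAATCCCAG is part of Alu repeats, and 215 of the 366 H82 matches and 67 of the 113 H146 matches lay outside it. There the log2 ratio was 0.57 with OTX2 and 0.65 without. At the 8 genes without OTX2, regions of H82 only held 1.36 matches per kb against 1.26 in all H82-only regions, and regions of H146 only 0.626 against 0.448. The density of the H82-only regions around these genes thus lay near that of all H82-only regions, and that of the 49 H146-only regions rested on 11 matches.

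In promoters, taken as the 300 bases from 250 before to 50 after the RefSeq start, TAATCC or its complement was found in 5.35% of 15344 protein-coding genes. It was found in 8.94% of promoters of the class H82 only, in 6.37% of H146 only, in 4.37% with both and in 8.71% with neither. The class is that of the gene's 5′ end in GENCODE, which can lie away from the RefSeq start. NR2E3, for example, is of the class neither, yet all 300 bases of its promoter lay in regions of both lines. SIX3 had no entry, and of the other 8 genes only CRX had the word. Of the photoreceptor and pineal genes, 22 had an entry and 6 of these held the word. Among the 10 of them with a TSS region in both lines, 2 (20%) did, namely CRB1 and CNGB1, whose matches lay in regions of both lines. Among the 10 of them in the class H82 only, 4 (40%) did, namely OPN1SW, SAG and PDE6A, whose upstream sequences are printed, and GUCY2F with matches at -26 and -1. Base composition moved with this class, since the median ratio of observed to expected CpG was 0.143 in these 10 promoters, 0.421 in all promoters of the class H82 only and 0.767 in all promoters. The part of base composition in the count was not tested.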

How the data were processed

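ATAC-seq libraries of H82 (3 untreated, 3 with FHD-286) and H146 (4 untreated, 3 with FHD-286) were prepared and sequenced by Genewiz. The authors trimmed reads with Trim Galore 0.4.4, aligned them to hg38 with bowtie2 2.3.4, removed duplicates with Picard, used MACS2 to call regions per sample, filtered them against the blacklist and merged those within 500 bp into 1 atlas per line. The deposited values are region starts and ends in bp, with no count or score, and the number of columns with values per sample that went unused was 0. More libraries or deeper ones add regions to an atlas, and merging joins neighbouring sites, so a width is not that of a single site. Whether read ends were shifted for the Tn5 cut is not given in the sources used here.

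GENCODE release 44 and the hg38 sequence are of the same build as the atlases, and 0 regions ended past their chromosome. Overlaps, covered bases and words were computed on 24 chromosomes with python 3.11.15, numpy 2.4.6 and pysam 0.24.0, and figures drawn with matplotlib 3.10.9. Regions with at least 1 bp in common with the other atlas were shared. The interval functions were tested on simulated data. The TSS was the gene's 5′ end. Coordinates are 1-based. All 56 RefSeq promoters of the named sets were identical to hg38.

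The members and gene lists were chosen with earlier results of these data known. Named were all members, list genes whose TSS class differed between the lines (at most 12 per list), and the 3 genes most like OTX2 by the Euclidean distance of their covered shares. Genes with a TSS within 300 kb of a member that differed at least 2-fold were also to be named, and OTX2 had none. Values of some list genes are not reported here. No test was made, and no comparison of FHD-286 with untreated cells was possible. Alternatives were other widths, TSS windows, transcript starts, flanks, scalings, words and the set without OTX2. The alternatives on the Alu word, on the reversed word without OTX2 and on the photoreceptor list, and the 2150 kb stretch with its 2 kb windows, were added after the data were seen.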

Additional observations from a re-analysis of the deposited data

How the results depend on the processing

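No paired analysis was possible because each line has 1 pooled atlas whose columns carry no replicate number, and for the same reason no library could be left out. Of the 9 genes, 2 had a TSS region in H82 only with a window of 2 kb, and 2 with the starts of all transcripts. Without OTX2, 0 genes had a covered share at least 2-fold higher in H82. The median log2 ratio of covered share, 0.55, was 0.16 with regions of at least 500 bp, 0.58 with flanks of 50 kb, 0.29 with flanks of 200 kb, 0.30 without OTX2 and 0.28 with atlases scaled to equal coverage. That of region number, 0.55, was 0.19, 0.44, 0.47 and 0.33 under the first 4 of these and 0.30 when scaled by the number of regions. That of median width, 0.14, was 0.058, 0.16, -0.024 and 0.025 under the same 4, so it turned with flanks of 200 kb. The log2 ratio of TAATCC density, 0.59, was 0.59, 0.86, 0.57 and 0.43 under the same 4, 0.91 in the central 200 bp of regions, 0.59 in regions over 1 kb from any TSS, 0.35 for the reversed word, 0.32 for the reversed word without OTX2, 0.57 outside the Alu word and 0.65 outside it without OTX2. Of single genes, CRX, at 0.05, rose to 0.94 with flanks of 50 kb and turned to -0.22 under scaling, and SIX6 turned to -0.73 with regions of at least 500 bp. The causes were not tested. Scaling lowered every log2 ratio of covered share by 0.27, and the median of all genes from 0.20 to -0.07. The number of photoreceptor and pineal genes with a TSS region in H82 only was 9 to 15 over 4 other TSS rules, and in H146 only 0 under each.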
